A study of Mus musculus with 2 samples.

Results

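Immediate early and stress response genes were read on liver arrays of mice given squalene. The 10 genes were Fos, Jun, Junb, Jund, Egr1, Ier2, Ier3, Atf3, Btg2 and Cdkn1a, picked by symbol among probe sets annotated to exactly 1 gene. All 10 were found, on 13 of the 20380 probe sets with 1 symbol, among 12393 genes in all. A gene is represented below by its brighter probe set over both pools, and the other probe set is given where one exists. Of the 10 genes, 7 had 1 probe set, and 3 (Jun, Btg2 and Cdkn1a) had 2 each.

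Both groups were male mice deficient in apolipoprotein E, labelled as 2 months old, of strain background C57BL/6J/ OLA129, kept on chow. The squalene group drank 1% glycerol with squalene, at a dose of 1 g per kg per day, for 10 weeks, and the control group drank 1% glycerol without it for the same 10 weeks. As 10 weeks is longer than 2 months, the labelled age is read as that at the start of treatment. Squalene is the triterpene from which cells make sterols, and loss of apolipoprotein E, carried here by both groups, slows the removal of lipoprotein remnants from blood. Each group was 1 pool of liver RNA on 1 Affymetrix array. The labels leave out the pool sizes, the hour of killing and the time between death and freezing. Treatment therefore cannot be told apart from anything else in which the pools differed, and no test between groups can be made.

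Immediate early genes are switched on within minutes of a growth factor, cytokine or stress signal, without new protein synthesis, and most of their mRNAs are short-lived. Mitogen-activated protein kinases phosphorylate factors bound to serum response and cyclic AMP response elements at their promoters, and several of the encoded proteins are transcription factors that drive the next wave of genes. In liver they are known for their surge after partial hepatectomy and in acute injury. Cdkn1a and Btg2, which restrain the cell cycle, are in addition classic targets of p53.

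Of the 10 genes, 7 could be read, and 3 of these were lower in the squalene pool past a log2 ratio of 0.5, as were 10.4% of all measured genes. Scaling to the spike-ins left 1 of the 3, Cdkn1a, beside 5.08% of all measured genes under that scaling. The AP-1 genes that could be read differed little on their brighter probe sets. Cdkn1a, which encodes the cyclin-dependent kinase inhibitor p21, was 2.16-fold lower, Btg2, an antiproliferative cofactor of mRNA deadenylation, was 1.54-fold lower, and Egr1, a zinc finger transcription factor, was 1.46-fold lower. Jun, Junb, Jund and Ier2 lay between log2 ratios of -0.18 and 0.13. Fos, Ier3 and Atf3 were too dim to place in either pool.

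The values are MAS5 signals on a linear scale, and a log2 ratio is squalene over control. The array median was 41.3 in the squalene pool and 39.9 in the control pool, and a gene is called measured where at least 1 pool reached its median. Of the 10 genes, 7 were measured, each in both pools, and Fos, Ier3 and Atf3 lay below the median in both. With 1 array per pool, the available spread is how far apart the probe sets of a gene lie, and these may also read different transcripts. It holds none of the variation between animals, pools or hybridizations, so a ratio set against it is a description only. The SD of the log2 ratio between such probe sets was 0.24 in the brightest tertile of mean signal (1411 genes), 0.71 in the middle tertile (1169 genes) and 1.91 in the dimmest (1144 genes). Signals of different probe sets are not compared with each other.

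**Figure D1:**
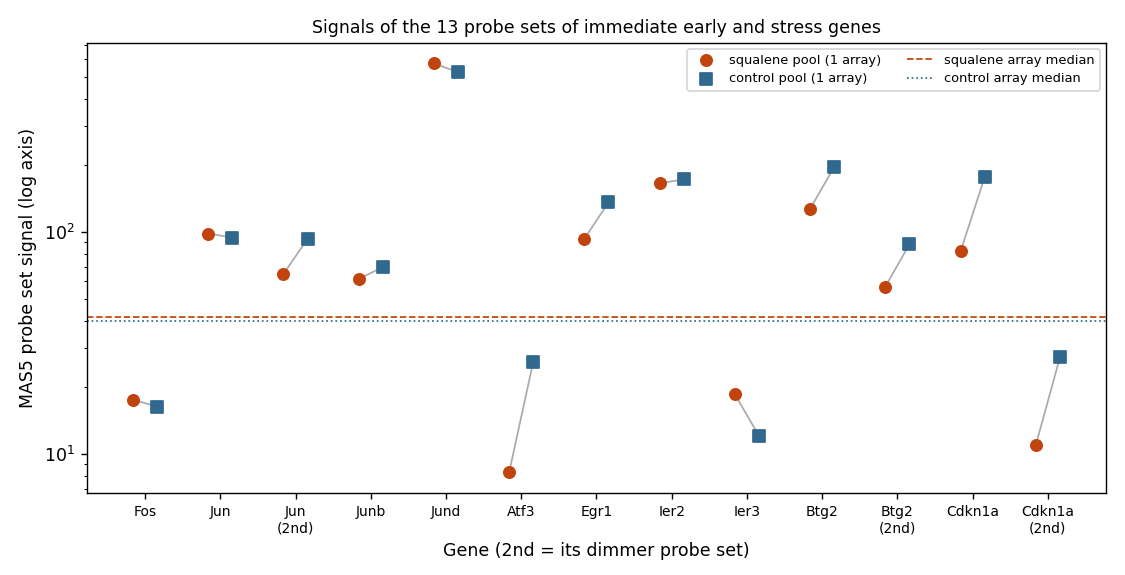
MAS5 signal (log axis) of each of the 13 probe sets in the squalene pool (circles) and the control pool (squares), 1 array each, with each array's median as a line. Squalene points lie below control points for both probe sets of Btg2 and of Cdkn1a and for Egr1, while Fos, Ier3, Atf3 and the dimmer Cdkn1a probe set lie under both medians.

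AP-1 is a dimer of basic leucine zipper proteins, made of Jun proteins alone or of a Jun with a Fos or ATF protein. Jun, the founding member, read 98.6 in the squalene pool and 94.6 in the control pool (log2 ratio 0.06) on its brighter probe set. Its other probe set read 64.8 in squalene and 93.4 in control (-0.53). The 2 probe sets of Jun thus disagreed, by less than the SD of 0.71 for their brightness tertile, and no direction is given for this gene.

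Junb, which often opposes Jun in growth control, read 61.5 in the squalene pool and 69.7 in the control pool (-0.18). Jund, the most constitutively expressed of the Jun genes, read 576.1 in the squalene pool and 525.6 in the control pool (0.13). Both differences were smaller than the SD between probe sets of their tertile, and Junb turned to 0.08 when the arrays were scaled to the hybridization spike-ins. Jund lay above 0 under each of the 9 processing alternatives. Flooring and the probe set rules could not change it, since it has 1 probe set with both signals above the medians.

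Fos, the partner that gives AP-1 its inducible component, read 17.6 in the squalene pool and 16.4 in the control pool, both below the array median. Atf3, a stress-induced repressor that dimerises with Jun proteins, read 8.3 in the squalene pool and 26.1 in the control pool. Its log2 ratio of -1.65 was the only one past 1.5, the limit that the submitters set for their own screen. It equals 0.87 of the SD in the dimmest tertile, and with both signals floored at the array medians the ratio was 0.05, so no difference is read from it. In both pools these signals are too low to say that either gene was or was not induced.

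Egr1 binds GC-rich sites and is among the fastest genes to respond to serum and growth factors. It read 93.4 in the squalene pool and 136.2 in the control pool, a log2 ratio of -0.54 on its 1 probe set. That is 2.31 times the SD between probe sets of its tertile, and 9.17% of measured genes had a lower ratio. Egr1 lies near the lower edge of the brightest tertile, however. Its ratio is smaller in size than the SD of 0.71 in the middle tertile, which holds Jun. It stood at -0.29 after scaling to the spike-ins, within the band of 0.5.

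Ier2, a small nuclear protein of the early response, read 166.1 in the squalene pool and 172.9 in the control pool (-0.06). Scaling to the spike-ins turned it to 0.20. Ier3, which modulates survival and ERK signalling, read 18.6 in the squalene pool and 12.1 in the control pool, both under the median. Its log2 ratio of 0.62 is 0.33 of the SD in its tertile. Ier3 was thus not readable here, and Ier2 was read in both pools with little difference.

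Btg2 belongs to the BTG/TOB family, whose proteins bind the CCR4-NOT deadenylase and slow the passage from G1 to S phase. On its brighter probe set it read 127.4 in the squalene pool and 196.8 in the control pool (-0.63), and on the other 56.9 in squalene and 88.2 in control (-0.63). The 2 probe sets gave nearly the same ratio and all 4 signals were above the array medians. The brighter ratio was 2.67 times the SD of its tertile, and 7.24% of measured genes had a lower one. The dimmer probe set lies in the middle tertile, where its ratio equals 0.90 of the SD of 0.71. It stood at -0.37 after scaling to the spike-ins, inside the band of 0.5.

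Cdkn1a showed the largest difference among the 7 measured genes. Its brighter probe set read 82.0 in the squalene pool and 177.1 in the control pool (-1.11), which is 4.72 times the SD of its tertile. This probe set lies near the lower edge of the brightest tertile. The SD of the middle tertile, 0.71, is still smaller than the size of the ratio. Of all measured genes, 2.25% had a lower ratio. The other probe set read 11.0 in the squalene pool and 27.3 in the control pool (-1.31), both under the median, and like Atf3 it is too dim to read a difference from. The gene stayed between -1.21 and -0.85 under the 9 alternatives. Flooring could not move it, as both signals of the brighter probe set lie above the medians.

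Promoter sequences are shown for Btg2 and Cdkn1a, which had 2 probe sets each, with ratios below 0 on both. The dimmer Cdkn1a probe set is too dim to read a difference from, so its sign adds nothing. The windows run from 250 bases before to 50 bases after the annotated start (RefSeq, build GRCm38.p6, in the direction of transcription). The window of Btg2 is chr1:134079106-134079405 on the minus strand, with a GC content of 72.0%, against a median of 52.7% over all genes. Cdkn1a has 2 annotated starts on the plus strand, an upstream one with the window chr17:29090729-29091028 and a downstream one with the window chr17:29093519-29093818. Capitals mark a cyclic AMP response element (CRE) in Btg2 and matches to the p53 decamer consensus in the upstream Cdkn1a window.
Btg2: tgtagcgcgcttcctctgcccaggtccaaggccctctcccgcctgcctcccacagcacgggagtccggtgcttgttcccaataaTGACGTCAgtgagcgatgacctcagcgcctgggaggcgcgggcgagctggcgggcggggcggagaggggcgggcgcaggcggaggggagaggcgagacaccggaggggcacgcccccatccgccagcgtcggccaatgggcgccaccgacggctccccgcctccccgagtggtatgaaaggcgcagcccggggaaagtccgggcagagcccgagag
Cdkn1a, upstream start: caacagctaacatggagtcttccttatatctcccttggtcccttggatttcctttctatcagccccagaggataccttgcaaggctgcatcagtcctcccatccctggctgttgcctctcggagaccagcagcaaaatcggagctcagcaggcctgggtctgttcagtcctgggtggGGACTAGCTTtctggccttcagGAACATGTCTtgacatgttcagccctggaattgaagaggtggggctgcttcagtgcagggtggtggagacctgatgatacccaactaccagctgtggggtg
Cdkn1a, downstream start: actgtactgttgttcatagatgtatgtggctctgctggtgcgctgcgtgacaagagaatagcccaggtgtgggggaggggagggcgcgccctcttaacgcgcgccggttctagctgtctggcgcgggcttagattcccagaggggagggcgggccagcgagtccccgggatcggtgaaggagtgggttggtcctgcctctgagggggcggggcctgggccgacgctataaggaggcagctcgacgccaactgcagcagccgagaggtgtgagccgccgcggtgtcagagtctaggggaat

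Promoter windows of 8 of the 10 genes were searched, on both strands. Egr1 and Ier2 were not searched, so the matches and absences given here do not cover them. Each share is set beside that of 27025 genes with such a window. The full CRE, TGACGTCA, was held by Btg2 alone of the 8, starting 166 bases before the start site, and by 2.03% of all genes. Its first 5 letters, TGACG, which lie inside the full element, were found in Atf3, Btg2, Fos and Junb, and in 23.0% of all genes. The ATF4 element TGATGCAA was found in Atf3 and in 1.03% of all genes. The p53 decamer consensus was found in Cdkn1a, at 2 places in the upstream window that begin 73 and 51 bases before that start, and in 9.55% of all genes.

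The TATA box, TATAAA, was found in Fos and Junb and in 15.7% of all genes, and CCAAT in 5 of the 8 genes and in 41.1% of all. None of the windows of these 8 genes held the AP-1 site TGANTCA (8.97% of all genes), the EGR sites GCGTGGGCG (0.707%) and GCGGGGGCG (3.31%), the E-box CACGTG (8.09%), the D-box TTATGTAA (1.11%) or the CArG box of serum response factor (1.81%). A match of letters is a description of the window and not a bound site, and its absence from these 300 bases says nothing of sites elsewhere.

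Counted together, 3 of the 7 measured genes were lower past a log2 ratio of 0.5 and 0 were higher. Over all 7330 measured genes, 10.4% were lower and 11.3% higher past the same limit. Past 1.0, 1 was lower and 0 were higher, beside 2.85% and 3.04% of all. Past 1.5, 0 of the 7 lay in either direction, where the background was 1.15% lower and 1.12% higher. The median of the 7 was -0.18, beside 0.01 over all measured genes. Without the filter the 10 genes gave 4 lower and 1 higher past 0.5, beside 19.8% and 21.5% of all 12393 genes, and the added ones were Atf3 and Ier3. Past 1.5 they gave 1 lower, Atf3, and 0 higher, beside 7.30% and 7.86%. Scaling to the spike-ins moved the median of all measured genes to 0.26 and that of the 7 to 0.08. It adds the same amount to every ratio, so the gap between these medians could not change. It left 1 gene, Cdkn1a, lower past 0.5 and 0 higher, beside 5.08% and 25.7% of all measured genes.

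**Figure D2:**
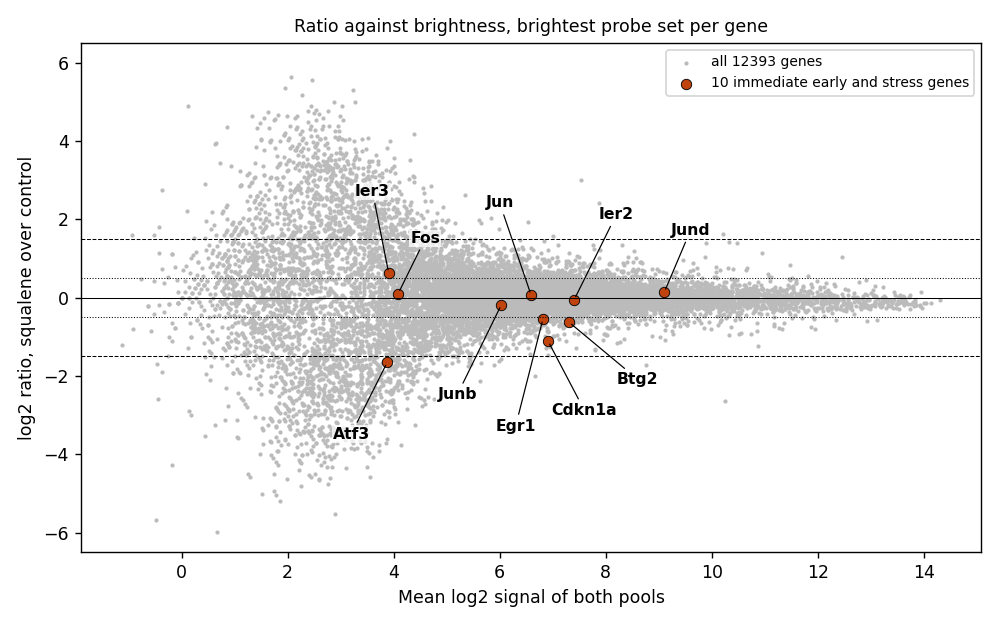
Log2 ratio of squalene over control against mean log2 signal for all 12393 genes (grey) and the 10 genes described (filled), with dotted lines at 0.5 and dashed lines at 1.5 in either direction. Cdkn1a (-1.11), Btg2 (-0.63) and Egr1 (-0.54) lie between the dotted and dashed lines below 0, whereas Fos, Ier3 and Atf3 sit where the grey cloud is widest.

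Other immediate early genes went both ways, with more of them lower. Of 45 annotated, 28 were measured, and 10 of these (35.7%) were lower and 3 (10.7%) higher past 0.5, beside the 10.4% and 11.3% of all measured genes. Their median was -0.22. Of the 23 read at or above the median in both pools, 5 (21.7%) were lower and 3 (13.0%) higher, with a median of -0.02, where 6.35% and 7.85% of all such genes were lower and higher. With the mean of each gene's probe sets the median of the 28 was 0.11, so the list as a whole has no settled direction.

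Nr4a1, an orphan nuclear receptor induced by cyclic AMP and stress, read 14.1 in the squalene pool and 56.2 in the control pool (-1.99). Klf6, a Krüppel-like factor, read 16.9 in squalene and 48.4 in control (-1.52), but its dimmer probe sets stood at 1.15 and 0.07. Both had squalene signals under the array median, so the size of neither ratio is firm. Id1, an inhibitor of helix-loop-helix factors, read 50.1 in the squalene pool and 114.5 in the control pool (-1.19).

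Socs3, a feedback inhibitor of cytokine signalling through STAT3, was lower on all 3 of its probe sets. The brightest read 88.5 in the squalene pool and 161.3 in the control pool (-0.87), and the others stood at -1.25 and -1.47. The MAP kinase phosphatase Dusp1 read 351.5 in squalene and 515.1 in control (-0.55), and the TGF-beta-inducible factor Klf10 read 95.5 in squalene and 143.5 in control (-0.59). Per1, an immediate early gene that is also part of the clock, stood at -0.70 with a squalene signal under the median.

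Higher past 0.5 were Nfkbiz, Zfp36 and Dusp6. Nfkbiz, a nuclear cofactor of NF-kappa B, read 183.8 in the squalene pool and 113.0 in the control pool (0.70), and its other probe set stood at 0.13. Zfp36, which destabilises AU-rich mRNAs, read 398.5 in squalene and 275.6 in control (0.53), and Dusp6, an ERK phosphatase, read 143.7 in squalene and 101.1 in control (0.51). Cebpb (0.41), Mcl1 (0.24) and Sgk1 (-0.29) lay inside the band. Fosb (27.1 in squalene and 9.8 in control), Fosl2 (8.5 in squalene and 5.4 in control) and Myc (34.2 in squalene and 38.0 in control) were below the median in both pools.

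**Figure D3:**
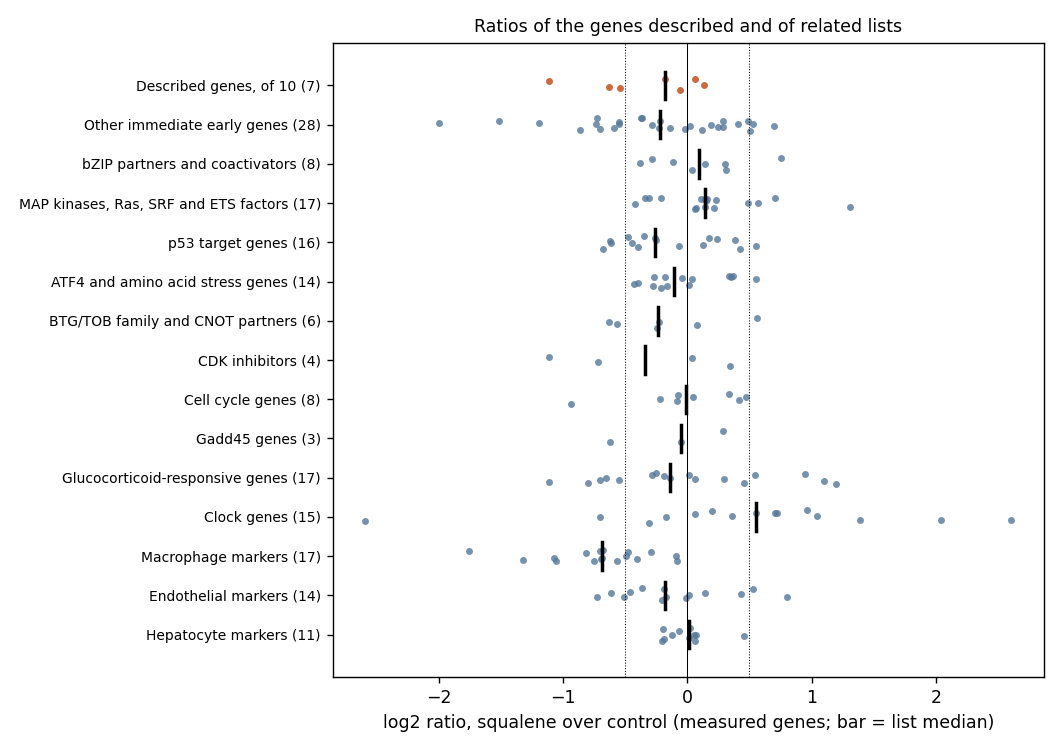
Log2 ratio of squalene over control for each measured gene of the 10 genes described and of related lists (number measured in brackets), with list medians as bars and dotted lines at 0.5 in either direction. The described genes have a median of -0.18, macrophage markers -0.68, hepatocyte markers 0.02 and clock genes 0.55.

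Upstream components had mostly small ratios. Of 17 measured MAP kinases, Ras proteins, serum response factor and ETS factors, 0 were lower and 3 (17.6%) higher past 0.5, beside 10.4% and 11.3% of all measured genes, with a median of 0.14. The 3 were Map3k5, a stress-activated kinase (66.3 in the squalene pool and 26.8 in the control pool, with the control signal under the median), Rps6ka3 (0.71) and Map3k7 (0.57). Dimmer probe sets stood at 1.19 and -0.83 for Rps6ka3 and at -0.24, 1.00, 1.03 and 2.99 for Map3k7. Srf, which binds the CArG box, had ratios of 0.49 (brighter probe set) and -0.64, and its ETS partner Elk4 stood at 0.23. Among 8 measured bZIP partners and coactivators, 1 was higher, the AP-1 repressor Jdp2 (74.2 in squalene and 44.1 in control, log2 ratio 0.75), and 0 were lower. Atf2 stood at 0.15, and Creb1 was below the median in both pools on its brightest probe set (29.0 in squalene and 26.9 in control).

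Other p53 target genes went both ways. Of 16 measured targets, 10 lay below 0 (beside 3612 of all 7330 measured genes), 3 (18.8%) were lower past 0.5 and 1 was higher, beside 10.4% and 11.3% of all, with a median of -0.26. The lower ones were the exonuclease gene Aen (-0.68), the sestrin gene Sesn1 (-0.62) and Sertad1 (-0.61), and the higher one was Sesn2 (0.55), with a control signal under the median. Mdm2, which encodes the ligase that degrades p53, stood at -0.48 and Ccng1 at -0.45. A dimmer probe set of each stood at 0.39 and 0.26, and Ccng1 had a further one at -0.26. Aen had others at 0.21 and 1.94, and Sesn1 at 0.11 and -0.58. With each gene's probe set nearest a log2 ratio of 0, a choice that draws ratios towards 0 by construction, the median was 0.01. Over genes past the 75th percentile of signal in at least 1 pool the median was 0.03.

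The BTG/TOB family held ratios of both signs. Btg1 read 708.5 in the squalene pool and 1051.1 in the control pool (-0.57) and stood at -0.41 on its other probe set. Tob2 read 295.6 in squalene and 200.8 in control (0.56), with its other 3 probe sets between 0.10 and 0.80, and Tob1 stood at -0.23. This list holds Btg2 itself and the deadenylase subunits Cnot7 and Cnot8 as well. Of its 6 measured genes, 2 were lower past 0.5, Btg1 and Btg2, and 1 was higher. Over all measured genes, 10.4% were lower and 11.3% higher. The difference between family members was not tested, since each pool has 1 array.

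Among the cyclin-dependent kinase inhibitors, Cdkn1b, the close relative that encodes p27, read 72.9 in the squalene pool and 71.1 in the control pool (0.04). Cdkn2d stood at -0.72 with a squalene signal under the median, and Cdkn2c at 0.34. Of 24 annotated cell cycle genes only 8 were measured, and the mitotic genes were not among them. Ccnd1, the G1 cyclin induced by AP-1 and mitogens, read 48.2 in squalene and 92.3 in control (-0.94) on the brightest of its probe sets, while the others stood at -0.24 and 0.08. The other 7 lay inside the band, among them Pcna, the replication clamp (-0.07), and Cdk4 (0.04).

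Other stress genes gave no common direction. Of 14 measured genes of the ATF4 pathway, which answers amino acid shortage and endoplasmic reticulum stress, 0 were lower and 1 was higher past 0.5, namely Sesn2 again, with a median of -0.10. Over all measured genes, 10.4% were lower and 11.3% higher. Atf4 itself read 638.9 in the squalene pool and 633.5 in the control pool (0.01), and its target Ddit3 stood at -0.27. Of the Gadd45 growth arrest genes, Gadd45g read 168.3 in squalene and 258.3 in control (-0.62). Gadd45b stood at -0.05 on its brightest probe set, with the others at -0.16 and 0.52. Gadd45a (13.8 in squalene and 36.3 in control) was below the median in both pools.

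Glucocorticoid-responsive genes, a list that includes Cdkn1a, spread both ways. Of 17 measured, 4 (23.5%) were higher and 5 (29.4%) lower past 0.5, beside 11.3% and 10.4% of all measured genes, with a median of -0.14. Tsc22d3, a classic glucocorticoid target, read 561.7 in the squalene pool and 244.7 in the control pool (1.20), with its other probe sets at 0.66 and 0.57. Zbtb16 (1.10), the chaperone gene Fkbp5 (0.95) and Mt2 (0.54) were the other higher ones. Besides Cdkn1a, the lower ones were G6pc (-0.80), Per1 (-0.70), Igfbp1 (-0.65) and Dusp1 (-0.55).

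Other measures also differed between the pools, and their counts past 0.5 are to be set beside 11.3% of all measured genes higher and 10.4% lower. Clock genes, whose hepatic mRNAs cycle over the day, had 8 of 15 measured members higher and 2 lower past 0.5, with a median of 0.55. The highest were Per3 (2.61), Per2 (2.04), Dbp (1.39) and Hlf (1.04), and the lower ones were Arntl (-2.59) and Per1 (-0.70). Control signals of Per3 and Per2 and squalene signals of Arntl and Per1 were under the median. Dimmer probe sets stood at 1.02 and -0.31 for Per3, -2.41 for Per2, 1.11 for Dbp and 0.11 for Hlf. Macrophage markers were below 0 in 17 of 17 measured genes (beside 3612 of all 7330), 11 of them past 0.5, with a median of -0.68. Squalene signals of Marco and Cd14, which are among the 11, were under the median. Of the 15 at or above the median in both pools, 9 were lower past 0.5, beside 6.35% of all such genes. Summed over the 19 annotated macrophage markers, the signal was 5739.0 in the squalene pool and 8880.6 in the control pool, and 0 of the 19 were at 0. Endothelial markers summed to 2555.0 in squalene and 3419.6 in control. Of 14 measured, 3 were lower and 2 higher past 0.5, namely Vwf (0.81), with a control signal under the median, and Stab1 (0.53). The endothelial median of -0.18 ran from -0.51 to 0.08 under the alternatives. Stellate cell and matrix genes summed to 4290.9 in squalene and 4598.1 in control, with 4 of 9 measured genes lower past 0.5. The part of these measures in the lower Cdkn1a, Btg2 and Egr1 was not tested. In bulk liver, fewer cells of a type cannot be told apart from less RNA per cell.

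Hepatocyte markers, which check the labelled tissue, were above the median in both pools in 11 of 11 cases and summed to 133178.1 in the squalene pool and 136511.4 in the control pool, and their median ratio was 0.02. Lymphocyte markers (291.3 in squalene and 304.1 in control over 15 genes, 2 measured), neutrophil markers (207.2 in squalene and 247.0 in control over 9 genes, 3 measured) and cholangiocyte markers (91.4 in squalene and 105.9 in control over 5 genes, 0 measured) were near the floor. Among signs of RNA quality, the 3′ over 5′ probe ratio for actin came to 2.48 in the squalene pool and 2.80 in the control pool, and for Gapdh to 0.678 in squalene and 0.690 in control. The spike-in probe sets (18 of 18) read lower in the squalene hybridization, their median log2 ratio being -0.26. Apoe read 130.6 in squalene and 141.0 in control on 1 probe set, which does not check the deletion, since the labels do not say which part was removed.

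**Figure D4:**
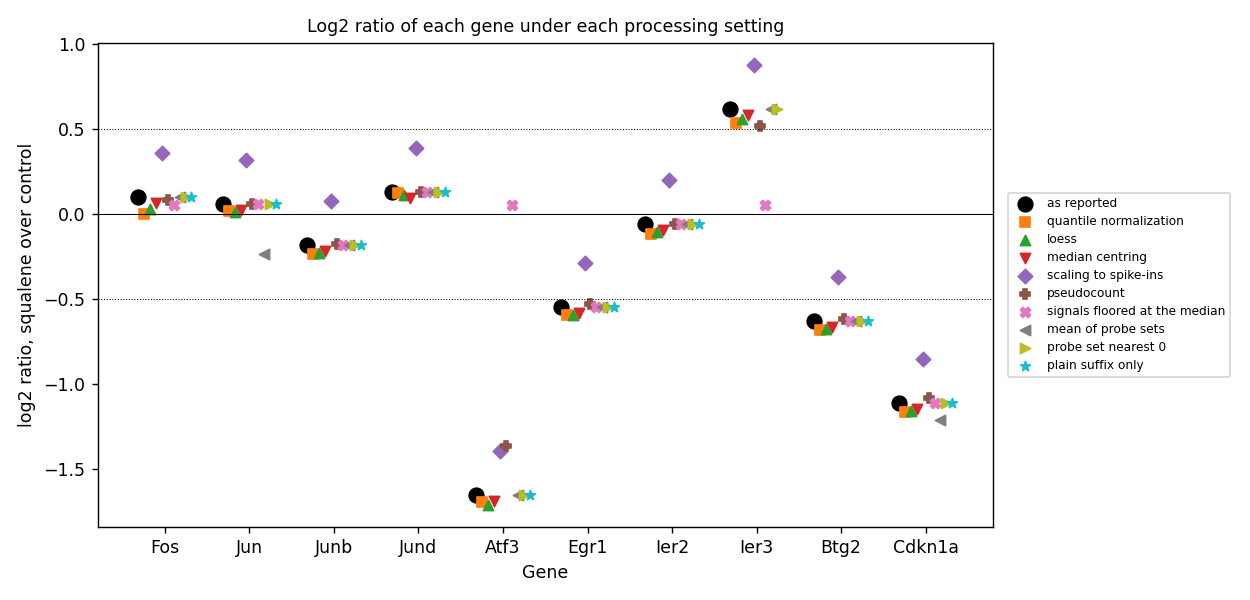
Log2 ratio of squalene over control of each of the 10 genes as reported and under 9 processing alternatives (8 for Ier3), with dotted lines at 0.5 in either direction. Cdkn1a stays between -1.21 and -0.85 and Btg2 and Egr1 stay below 0, whereas Atf3 reads 0.05 once both signals are floored, and Junb and Ier2 turn positive after scaling to the spike-ins. Flooring and the probe set rules return the reported value by construction for Junb, Jund, Egr1 and Ier2.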

How the data were processed

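Per the submitters' processing notes, the authors made the deposited intensity values, 1 linear signal per probe set, with MAS5. Its version and scaling target are not stated there. The 2%-trimmed mean was 200.1 on each array. Each array held 22690 probe sets, 64 of them array controls. Symbols came from the platform annotation, whose probe sets with 1 symbol (20380) were used, and 20351 of these matched RefSeq by Entrez number.

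From the deposited signals the log2 ratio of squalene over control was computed without a pseudocount. Tertiles of mean signal for the spread between probe sets were taken over all 20380 probe sets. Other genes were named by rule: a set list of 30 well-known response genes, and up to 4 measured genes at each end of a list past 0.5. The 10 genes, lists and limits were chosen with earlier results of these data known. With 1 array per group no p-value was computed, and the number of arrays limits the precision.

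Alternatives were quantile normalization, loess (limma 3.58.1 in R 4.3.3, span 0.3), median centring, spike-in scaling, a pseudocount of 3.0, floored signals, other probe set rules, other filters and a limit of 1.0. Python 3.11.15, numpy 2.4.6, pandas 2.3.3 and matplotlib 3.10.9 were used. Counting was tested on simulated signals.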

Additional observations from a re-analysis of the deposited data

How the results depend on the processing

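No paired analysis was possible because each group has 1 array and no replicate to leave out. Signals near the floor limit Fos, Ier3 and Atf3, and 1 probe set each limits Egr1, Ier2, Junb and Jund. Scaling to the spike-ins adds 0.26 to every ratio by construction. It gave 0.39 for Jund, -0.29 for Egr1, 0.20 for Ier2, -0.37 for Btg2 and -0.85 for Cdkn1a. It left 1 gene lower past 0.5, beside 5.08% of all measured genes, and put the median at 0.078. Flooring set Atf3 to 0.0515, because both its signals lie under the medians. With a limit of 1.0, 1 gene was lower. Without a filter, which lets the 3 dim genes in, 1 gene was higher past 0.5 and 1 lower past 1.5. The other 140 values of the 10 genes, their counts and their median moved by less than the SD between probe sets, or by at most 1.5 times for counts (2 genes lower past 0.5 with the filter at the 75th percentile, against 3). Some of these values were fixed by construction, such as flooring for genes above the medians. Of 202 list medians under alternatives, 34 moved by more than 0.24. Ier3 has no plain-suffix probe set, so that setting gave it no value, and cholangiocyte markers gave none because 0 were measured.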
